A study of Mus musculus with 6 samples.

Results

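The eicosanoid pathway of mouse group 3 innate lymphoid cells (ILC3s) was described through 10 genes: the cyclooxygenase genes Ptgs1 and Ptgs2, the prostaglandin E synthase gene Ptges3, the prostaglandin-degrading enzyme gene Hpgd, the leukotriene synthesis genes Alox5, Alox5ap, Lta4h and Ltc4s, and the prostaglandin E2 receptor genes Ptger2 and Ptger4. Each symbol matched 1 Ensembl identifier of the 55401 in the deposited count table, and all 10 passed the filter on low counts, which kept 18253 genes. RNA was sequenced in 3 libraries from a PEox pretreatment group and 3 from a vehicle group. Per the labels, all 6 libraries were small-intestinal lamina propria ILC3s of wild-type genotype, from pups according to the protocol text. PEox is not spelled out in the labels. The labels give no dose or exposure time, and do not say whether exposure took place in the animal or whether libraries came from separate or pooled animals. The p-values therefore reflect library-to-library spread alone, some or all of which may be technical.

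Eicosanoids are signalling lipids made mainly from arachidonic acid, a polyunsaturated fatty acid that phospholipases cut from membrane phospholipids. Cyclooxygenases turn it into prostaglandin H2, from which terminal synthases make prostaglandin E2 and the other prostanoids, whereas 5-lipoxygenase and its activating protein start the route to the leukotrienes. In lymphocytes prostaglandin E2 acts mainly through the receptors EP2 and EP4, which couple to the stimulatory G protein and raise cyclic AMP, and signalling through EP4 is known to promote interleukin 22 output by ILC3s in mice.

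Libraries held 56252806 to 57532484 counts with PEox and 59524577 to 66849230 counts with vehicle. All 10 ILC3 marker genes examined, among them Il23r, had counts, with 3 rising and 4 falling. Their summed level was 7098 to 7246 CPM (a gene's share of a library's counts on the usual per-million scale, with TMM scaling) with PEox and 12260 to 12490 CPM with vehicle. The largest part of this sum in both groups was Il22, at 2513 ± 59.4 CPM with PEox and 6724 ± 63.5 CPM with vehicle (SD, n = 3; edgeR adjusted p = 3.79e-07). Il7r, Il23r and Il1r1 did not pass (edgeR adjusted p = 0.0511, 0.412 and 0.446). Although the protocol text names sorted epithelial cells, 9 epithelial markers, Epcam and keratin genes among them, summed to only 59.6 to 67.6 CPM with PEox and 98.5 to 111.6 CPM with vehicle. Of all tested genes, 37.1% passed the edgeR quasi-likelihood test at a Benjamini-Hochberg adjusted p under 0.05, 18.3% higher and 18.8% lower with PEox, so a change in any single gene was common.

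In the PEox libraries the genes for both cyclic AMP-raising prostaglandin E2 receptors and for a prostaglandin E synthase were higher, and the genes that open the leukotriene route were lower. Among all tested genes 18.3% rose and 18.8% fell. Of the 10 genes, 3 rose (Ptger2, Ptger4 and Ptges3), 3 fell (Alox5, Alox5ap and Lta4h) and 4 did not pass the test (Ptgs1, Ptgs2, Ltc4s and Hpgd). Calls were more common at higher levels. With the filter at 5 CPM in 3 libraries, 3322 of 10743 genes rose and 3185 fell, beside 3 and 3 of the 10 genes. Their fold changes ran from a log2 value of -1.61 for Alox5 to 1.06 for Ptger2, with a median of 0.30 beside 0.00074 over all tested genes. The CPM values of the groups did not overlap for 6 of the 10, against 50.6% of all tested genes, so this count is close to the background. All directions are relative to TMM scaling.

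**Figure D1:**
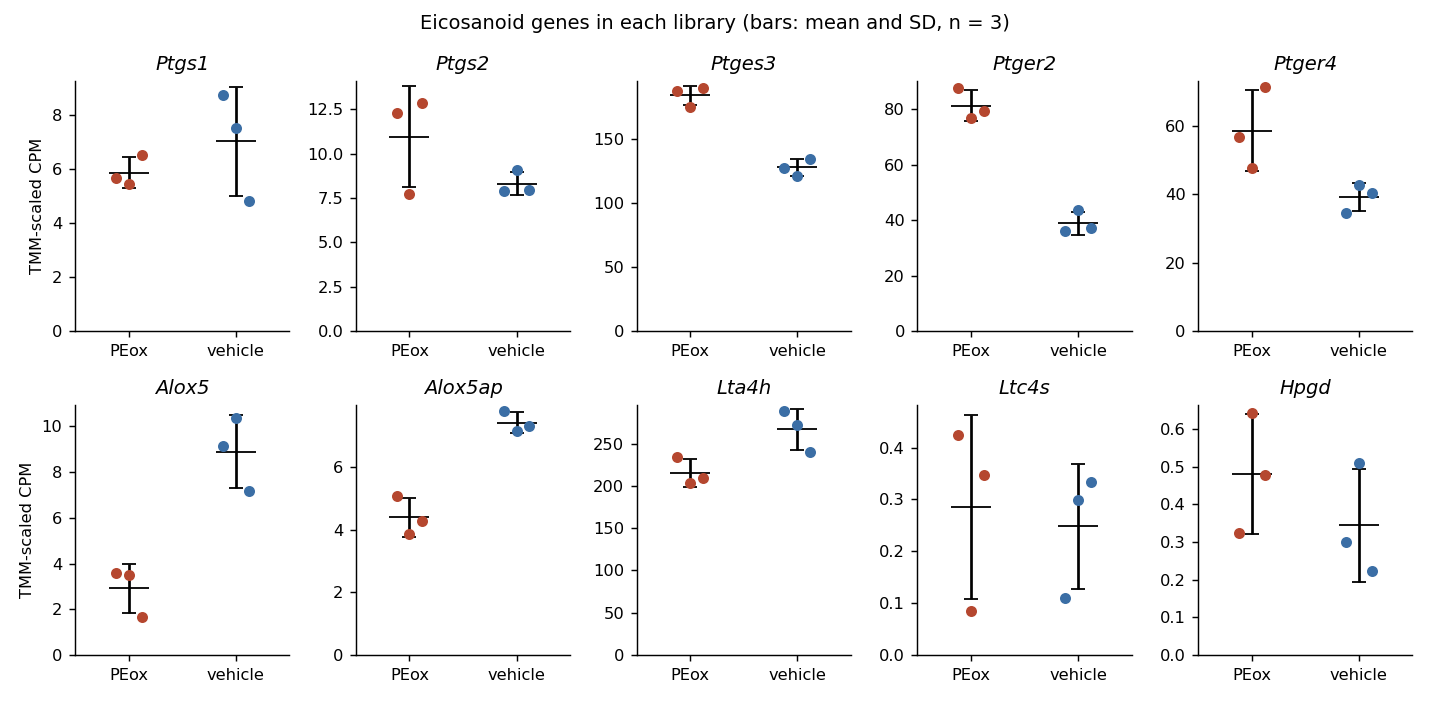
TMM-scaled CPM (y axis, from 0) of the 10 eicosanoid genes in each of 3 PEox and 3 vehicle libraries, with points for libraries and bars for mean and SD. Ptges3, Ptger2 and Ptger4 lay higher in every PEox library than in any vehicle library, Alox5, Alox5ap and Lta4h lay lower, and the other 4 overlapped.

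Levels are compared between genes as CPM per kilobase of annotated exon. In the PEox libraries the order was Ptges3 at 82.9 ± 3.45, Lta4h at 35.3 ± 2.70, Ptger2 at 15.6 ± 1.07 and Ptger4 at 8.81 ± 1.78 CPM per kilobase, followed by Alox5ap at 3.10 ± 0.44, Ptgs2 at 2.39 ± 0.62, Ptgs1 at 1.51 ± 0.15 and Alox5 at 0.71 ± 0.26 (SD, n = 3). In the vehicle libraries the first 5 places were held by the same genes in the same order, at 57.6 ± 3.05, 43.7 ± 4.03, 7.499 ± 0.80, 5.89 ± 0.61 and 5.22 ± 0.24 CPM per kilobase, and Alox5 stood sixth at 2.17 ± 0.39 (SD, n = 3). Ltc4s and Hpgd were last in both groups, at 0.28 and 0.29 CPM per kilobase with PEox and 0.24 and 0.20 with vehicle. Neighbours whose library values overlapped were Alox5ap and Ptgs2, and Hpgd and Ltc4s, with PEox, and, with vehicle, Ptger4 and Alox5ap, Alox5 and Ptgs2, Ptgs2 and Ptgs1, and Ltc4s and Hpgd. Averaged over all libraries, Ptges3 and Lta4h stood at the 94.8 and 90.6 percentile of tested genes by level per kilobase, and Ptger2 and Ptger4 at 74.4 and 66.8, so the receptors were well above the middle. Alox5, Ptgs1 and Ptgs2 lay at the 40.0, 42.2 and 45.7 percentile.

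Ptger2 (ENSMUSG00000037759), on chromosome 14, encodes EP2. Its level was 87.5, 77.0 and 79.2 CPM in PEox libraries 1 to 3, against 36.1, 43.7 and 37.0 CPM in vehicle libraries 1 to 3. Every PEox library lay far above every vehicle library. The fold change was 2.09, or a log2 fold change of 1.06 (adjusted p = 8.67e-05 by edgeR, SE 0.10), larger in size than that of 82.1% of tested genes. Among 14 alternatives of scaling, filter, tool, pairing and left-out library the value ran from 1.002 to 1.197 and passed the test in each. Ptger2 had 4552 to 5149 counts with PEox and 2291 to 2481 with vehicle, and 2 opposite-strand neighbours that share exonic bases with it had fewer. Gm17173, which shares 246 bases, had 259 to 289 counts with PEox and 121 to 197 with vehicle. Gm49364, which shares 144 bases, had 85, 84 and 16 counts in PEox libraries 1 to 3 and 135, 69 and 87 in vehicle libraries 1 to 3. Since the sources do not say whether counting used strand, reads of such pairs cannot be told apart where they overlap.

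Ptger4 (ENSMUSG00000039942), on chromosome 15, encodes EP4. It lay at 56.8, 47.8 and 71.3 CPM in PEox libraries 1 to 3 and at 34.6, 42.6 and 40.3 CPM in vehicle libraries 1 to 3. The groups did not overlap, but the PEox libraries were spread widely and the lowest of them stood close to the highest vehicle library. The log2 fold change was 0.58 (adjusted p = 0.0166 by edgeR, SE 0.15), a fold of 1.497. The opposite-strand neighbour Ttc33 shares 82 exonic bases with it and had 2080 to 2321 counts with PEox and 2230 to 2606 with vehicle, and the pseudogene Gm15937, which shares 1015, had 4 to 21 and 0 to 16. The call was lost without either of 2 vehicle libraries: without vehicle library 1 the value was 0.50 (edgeR adjusted p = 0.0724) and without vehicle library 3 it was 0.60 (edgeR adjusted p = 0.0516).

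Ptger4 made up a smaller share of the receptor pair in the PEox libraries, without overlap, in a design of 3 against 3 libraries that cannot reach a p under 0.1. Ptger4 made up 39.4%, 38.3% and 47.4% of the counts of both genes in PEox libraries 1 to 3, against 49.0%, 49.3% and 52.1% in vehicle libraries 1 to 3. The difference was -8.47 percentage points (exact two-sided permutation p = 0.1, the smallest possible, n = 3 each), and -8.15 points after dividing counts by exonic length. Every PEox share lay below every vehicle share, and PEox library 3 came closest to the vehicle libraries.

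Marker sums of some other cell types were higher with PEox, as these receptor genes were. The 7 erythroid markers summed to 5121 to 5808 CPM with PEox and 2754 to 2802 CPM with vehicle, with 5 rising and none falling. The 9 stromal and endothelial markers summed to 326.7 to 359.1 CPM with PEox and 221.8 to 247.9 CPM with vehicle, with 4 of 7 tested rising and 1 falling, and Cdh5 and Kdr at 0 in the PEox libraries. Summed lymphocyte markers were lower: the 8 T cell markers summed to 45.8 to 57.4 CPM with PEox and 105.9 to 120.4 CPM with vehicle, with 5 falling and 1, Cd4, rising to 14.8 ± 4.15 CPM with PEox against 8.46 ± 1.80 CPM with vehicle (SD, n = 3; edgeR adjusted p = 0.0363). The 8 markers of natural killer cells and ILC1s summed to 84.2 to 88.4 CPM with PEox and 307.7 to 322.1 CPM with vehicle, with 6 of 7 tested falling and none rising. The part of these cells in the receptor values was not tested.

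Promoter sequences of 4 genes with a call are shown because the receptor pair rose together, with Ptges3 as another riser and Alox5 as the largest fall. They come from RefSeq (build GRCm38.p6), which held 9 of the 10 genes; each is read 5′ to 3′ on the gene's strand from 250 bases before to 50 after the annotated start. Capitals mark matches on either strand to TGACG, the half-site of the cyclic AMP response element, to TGACNNNGC, the core of the antioxidant response element, or to GGGCGG, the GC box. The windows are chr14:44987861-44988160 (plus strand) for Ptger2, chr15:5244138-5244437 (minus strand) for Ptger4, chr10:128058732-128059031 (plus strand) for Ptges3 and chr6:116461129-116461428 (minus strand) for Alox5.
Ptger2: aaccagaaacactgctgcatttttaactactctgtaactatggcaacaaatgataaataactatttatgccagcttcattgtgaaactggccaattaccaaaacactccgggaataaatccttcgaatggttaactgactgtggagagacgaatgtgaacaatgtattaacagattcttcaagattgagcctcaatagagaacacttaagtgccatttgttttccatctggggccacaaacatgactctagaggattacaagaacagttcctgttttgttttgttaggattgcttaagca
Ptger4: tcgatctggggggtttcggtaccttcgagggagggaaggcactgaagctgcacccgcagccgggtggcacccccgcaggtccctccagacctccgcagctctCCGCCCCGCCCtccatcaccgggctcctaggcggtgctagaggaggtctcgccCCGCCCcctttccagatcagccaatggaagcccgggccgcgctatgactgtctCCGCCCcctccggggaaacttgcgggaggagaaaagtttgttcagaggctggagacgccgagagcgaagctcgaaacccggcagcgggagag
Ptges3: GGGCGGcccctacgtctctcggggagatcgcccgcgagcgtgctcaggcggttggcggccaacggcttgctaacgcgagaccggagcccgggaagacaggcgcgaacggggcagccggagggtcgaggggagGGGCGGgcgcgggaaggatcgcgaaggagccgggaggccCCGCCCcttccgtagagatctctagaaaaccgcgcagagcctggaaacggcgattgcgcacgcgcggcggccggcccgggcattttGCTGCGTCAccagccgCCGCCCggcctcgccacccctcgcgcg
Alox5: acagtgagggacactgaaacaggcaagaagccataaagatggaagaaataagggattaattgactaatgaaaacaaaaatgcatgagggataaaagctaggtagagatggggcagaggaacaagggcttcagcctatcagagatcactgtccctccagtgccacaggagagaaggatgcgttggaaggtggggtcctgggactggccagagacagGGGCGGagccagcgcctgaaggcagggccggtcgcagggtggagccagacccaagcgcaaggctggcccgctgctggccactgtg
The receptor windows had little in common by these measures. The Ptger2 window held none of the motifs and 3 CG dinucleotides, whereas the Ptger4 window held 4 GC boxes, the first 2 of them overlapping, and 25 CG dinucleotides, against a median of 7 over 32851 promoters. The Ptges3 window held 46 CG dinucleotides, 4 GC boxes and 1 match to the antioxidant core, on the minus strand from base 8 after the start, which overlaps 1 half-site match. Alox5 had 1 GC box. Of all 32851 promoters of this length, 20.8% held the half-site, 12.4% the antioxidant core and 35.7% the GC box. A match is a description of the letters and not a binding site. The nearest GENCODE transcript of Ptger2 starts 84 bases after the RefSeq start, which is outside the printed window. For Ptger4 the 2 starts coincide, so the receptor windows may not be like regions. Promoter use was not measured.

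Ptges3 (ENSMUSG00000071072, chromosome 10) encodes p23, a co-chaperone of the heat shock protein Hsp90 that is also known as the cytosolic prostaglandin E synthase. Its level was 187, 175 and 189 CPM in PEox libraries 1 to 3, against 127, 121 and 135 CPM in vehicle libraries 1 to 3. All PEox libraries were higher than all vehicle libraries, and replicates lay close together. The log2 fold change of 0.53 (adjusted p = 0.000277 by edgeR, SE 0.06) passed in each of 14 alternatives. A processed pseudogene of the same name, Ptges3-ps, had 980 to 1129 counts with PEox and 1170 to 1393 with vehicle, beside 10353 to 11455 and 6872 to 8470 counts of Ptges3. Reads may be split between Ptges3 and this copy, so the level of Ptges3 is uncertain. Their likeness in sequence was not measured, and pseudogenes under other names were not looked for.

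The cyclooxygenase genes lay somewhat below the middle of tested genes by level per kilobase and did not pass. Ptgs2 (ENSMUSG00000032487, chromosome 1), the inducible cyclooxygenase gene, had 12.3, 7.71 and 12.9 CPM in PEox libraries 1 to 3 and 7.89, 9.08 and 7.98 CPM in vehicle libraries 1 to 3. PEox library 2 lay below all vehicle libraries while the other PEox libraries lay above them. The log2 fold change was 0.40 (adjusted p = 0.202 by edgeR, SE 0.22), with a 95% interval of -0.10 to 0.90, and without PEox library 2 it was 0.59 (edgeR adjusted p = 0.0254). Ptgs1 (ENSMUSG00000047250, chromosome 2), the constitutive cyclooxygenase gene, had 5.68, 5.43 and 6.51 CPM with PEox and 8.75, 7.53 and 4.82 CPM with vehicle, with overlapping groups. Its log2 fold change was -0.26 (adjusted p = 0.481 by edgeR, SE 0.25; 95% interval -0.83 to 0.31). With intervals this wide, a moderate difference in either gene was not detectable.

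Ptgs2 took 68.4%, 58.7% and 66.4% of the cyclooxygenase counts in PEox libraries 1 to 3, against 47.4%, 54.7% and 62.4% in vehicle libraries 1 to 3. The shares overlapped, and the difference of 9.70 percentage points did not pass (exact two-sided permutation p = 0.2, where 0.1 is the smallest possible, n = 3 each). With each library left out in turn the difference was 5.99 to 13.5 points, the lowest without vehicle library 1, and the sign did not turn.

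Hpgd and Ltc4s had few counts in all libraries. Hpgd (ENSMUSG00000031613, chromosome 8) encodes 15-hydroxyprostaglandin dehydrogenase, the main prostaglandin-inactivating enzyme, and had 19, 38 and 29 counts in PEox libraries 1 to 3 and 19, 29 and 14 counts in vehicle libraries 1 to 3. Ltc4s (ENSMUSG00000020377, chromosome 11) encodes leukotriene C4 synthase and had 25, 5 and 21 counts with PEox and 7, 17 and 21 counts with vehicle. Neither gene separated the groups. The 95% intervals of their log2 fold changes, -1.14 to 2.11 and -1.92 to 2.33, were wide (edgeR adjusted p = 0.657 and 0.894), and the sign for Ltc4s turned without PEox library 1 or vehicle library 1.

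Alox5 (ENSMUSG00000025701), on chromosome 6, encodes 5-lipoxygenase, the enzyme that commits arachidonic acid to the leukotrienes. It had 3.59, 3.48 and 1.67 CPM in PEox libraries 1 to 3 and 9.16, 10.4 and 7.19 CPM in vehicle libraries 1 to 3. Every PEox library was well below the lowest vehicle library. The log2 fold change of -1.61 (adjusted p = 0.00478 by edgeR, SE 0.32) was the largest of the 10 genes, larger in size than that of 92.1% of tested genes, and passed in each of 14 alternatives, between -1.79 and -1.33. In RNA from bulk samples, fewer cells of a type and less RNA per cell cannot be told apart.

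Alox5ap (ENSMUSG00000060063), on chromosome 5, encodes the 5-lipoxygenase-activating protein, which hands arachidonic acid to the enzyme. Its level was 5.08, 3.86 and 4.26 CPM in PEox libraries 1 to 3, against 7.79, 7.14 and 7.31 CPM in vehicle libraries 1 to 3. The groups were well apart, at a log2 fold change of -0.75 (adjusted p = 0.0157 by edgeR, SE 0.19). The call was lost, at -0.33 (edgeR adjusted p = 0.225), once trends with length and GC content of the longest annotated transcript were taken out of each library. It was also lost without vehicle library 1, at -0.71 (edgeR adjusted p = 0.0643), or vehicle library 3, at -0.77 (edgeR adjusted p = 0.0522), where the size was close to the reported one.

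Lta4h (ENSMUSG00000015889), on chromosome 10, encodes leukotriene A4 hydrolase, which makes leukotriene B4 and also trims peptides. It lay at 234, 204 and 209 CPM in PEox libraries 1 to 3 and 289, 272 and 240 CPM in vehicle libraries 1 to 3. The highest PEox library came within a few CPM of the lowest vehicle library. The log2 fold change of -0.31 (adjusted p = 0.0181 by edgeR, SE 0.08) was the smallest among the 6 called of the 10 genes. It did not pass under library size scaling (-0.17, edgeR adjusted p = 0.133), with the length and GC trend removed (-0.26, edgeR adjusted p = 0.0513), or without PEox library 2 or 3 or vehicle library 1 or 2 (-0.25 to -0.29, edgeR adjusted p = 0.0576 to 0.0727).

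Alox5 and Alox5ap are known to be expressed by mast cells, macrophages and B cells as well, and markers of these cells were lower in the same libraries. The 13 mast cell and basophil markers summed to 44.5 to 52.2 CPM with PEox and 206.1 to 211.2 CPM with vehicle, with 8 of 13 falling, none rising, and Mcpt8 and Prss34 without a count in any PEox library. Of 12 tested macrophage, monocyte and dendritic cell markers 8 fell and none rose, and the 14 of the list summed to 131.1 to 153.8 CPM with PEox and 270.6 to 284.5 CPM with vehicle, Clec9a being at 0 throughout. The 7 B cell markers summed to 40.0 to 44.0 CPM with PEox and 260.7 to 280.6 CPM with vehicle, and 6 of them fell. Neutrophil markers summed to 19.95 to 64.9 CPM with PEox and 15.0 to 55.6 CPM with vehicle, with 2 of 8 falling and Elane at 0 with PEox. The part of these cells in the lower leukotriene genes was not tested.

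The other genes of the pathway were taken from 7 lists holding 57 genes, of which 40 were tested. Of these, 9 rose, 13 fell and 18 did not pass, with a median log2 fold change of -0.44 beside 0.00074 over all tested genes. Among all tested genes 18.3% rose and 18.8% fell, which is the background for each list count below. That background was larger among genes of higher level: with the filter at 5 CPM in 3 libraries, 3322 of 10743 rose and 3185 fell.

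**Figure D2:**
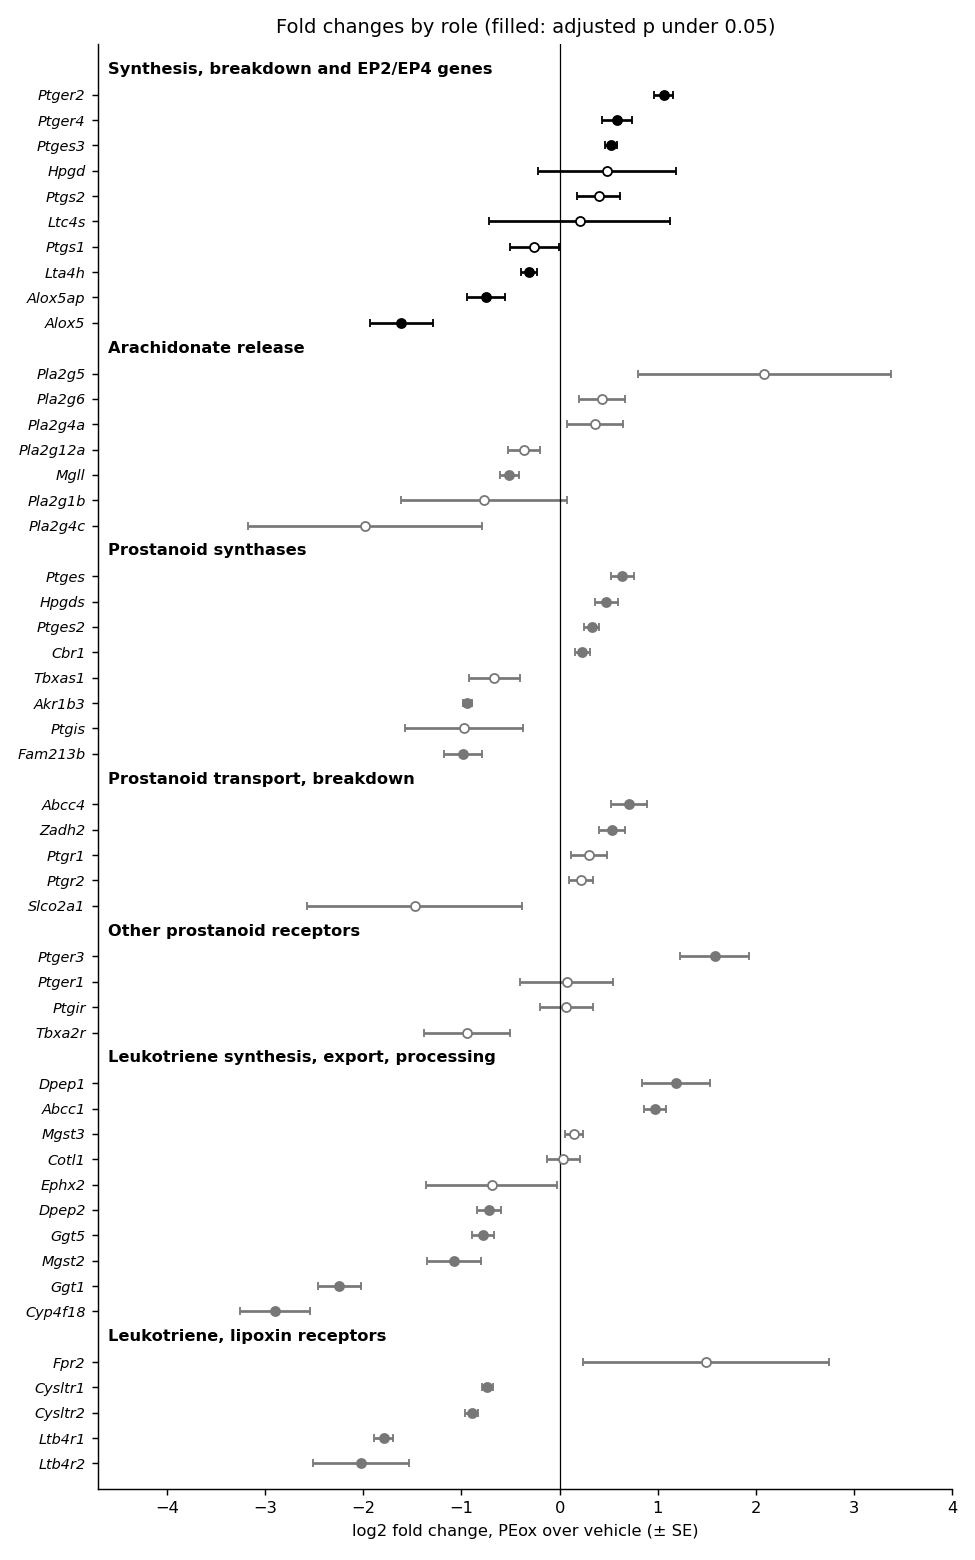
Log2 fold change of PEox over vehicle with its SE (x axis) for the 10 eicosanoid genes (black) and the other tested pathway genes (grey), grouped by role, filled where the edgeR adjusted p was under 0.05. Alox15, which had no count in any PEox library, is not drawn; Ptger2 lies highest among the black points at 1.06 and Alox5 lowest at -1.61.

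Leukotriene receptor genes were lower. Of 6 leukotriene and lipoxin receptor genes in the list 5 were tested, 4 fell and none rose. Ltb4r1, which encodes the high-affinity leukotriene B4 receptor, had 86.3, 79.8 and 65.0 CPM in PEox libraries 1 to 3, against 264, 260 and 277 CPM in vehicle libraries 1 to 3. The groups lay far apart, at a log2 fold change of -1.79 (adjusted p = 7.7e-06 by edgeR, SE 0.10). Cysltr1 and Cysltr2, the receptor genes for cysteinyl leukotrienes, averaged 87.0 ± 0.87 and 67.8 ± 2.76 CPM with PEox and 145.2 ± 5.14 and 126.2 ± 4.98 CPM with vehicle (SD, n = 3), and fell by 0.74 and 0.90 on the log2 scale (edgeR adjusted p = 2.85e-05 and 2.04e-05). Each of these 3 passed in all 14 alternatives. Ltb4r2, a low-affinity receptor gene, lay at 0.47 ± 0.21 CPM with PEox and 1.90 ± 0.32 CPM with vehicle (SD, n = 3; edgeR adjusted p = 0.0123), and its call was lost without vehicle library 1 (edgeR adjusted p = 0.0631). The lower marker sums given above for mast cells, macrophages, B cells, T cells, and natural killer cells with ILC1s apply to these genes too. The 7 markers of group 2 innate lymphoid cells summed to 331.4 to 398.3 CPM with PEox and 449.3 to 480.3 CPM with vehicle. Of 6 tested 3 fell and none rose. Most of this sum was Gata3, at a mean of 300.96 CPM with PEox and 384.02 CPM with vehicle. Il1rl1 averaged 28.74 CPM with PEox and 43.34 CPM with vehicle. Il5 and Klrg1 were low, at 1.09 and 0.79 CPM with PEox and 2.89 and 4.03 CPM with vehicle. Il13 had no count in any PEox library. The part of all these cells in the lower receptor genes was not tested.

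Prostanoid receptor genes other than Ptger2 and Ptger4 lay below that pair in level. Of 7, 4 were tested and 1 rose: Ptger3, which encodes the inhibitory-G-protein-coupled receptor EP3, had 2.21, 4.18 and 2.78 CPM in PEox libraries 1 to 3 and 0.90, 1.02 and 1.14 CPM in vehicle libraries 1 to 3. All PEox libraries were above all vehicle libraries, with a log2 fold change of 1.58 (adjusted p = 0.00822 by edgeR, SE 0.35). The prostacyclin receptor gene Ptgir averaged 8.07 ± 2.81 CPM with PEox and 7.69 ± 0.93 CPM with vehicle (SD, n = 3; edgeR adjusted p = 0.877), and the thromboxane receptor gene Tbxa2r 2.72 ± 1.41 and 5.24 ± 1.38 CPM in the same order (edgeR adjusted p = 0.134). By level per kilobase, Ptgir and Tbxa2r stood at the 47.6 and 45.4 percentile of tested genes.

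**Figure D3:**
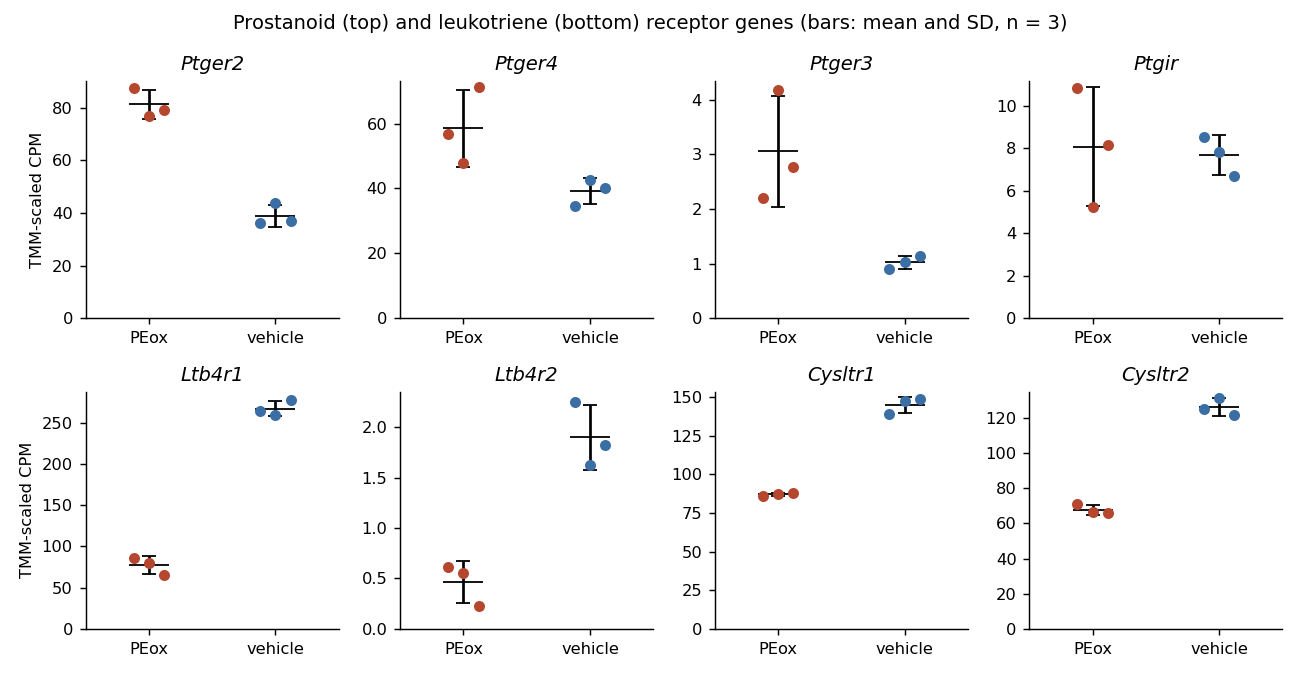
TMM-scaled CPM (y axis, from 0) of 4 prostanoid receptor genes (top) and 4 leukotriene receptor genes (bottom) in each of 3 PEox and 3 vehicle libraries, with bars for mean and SD. Ptger2, Ptger4 and Ptger3 lie higher and all 4 leukotriene receptor genes lie lower in every PEox library, whereas Ptgir overlaps.

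Among 9 terminal prostanoid synthase genes 8 were tested, of which 4 rose and 2 fell. Ptges, the microsomal prostaglandin E synthase gene that works with Ptgs2, had 45.1, 38.5 and 39.8 CPM in PEox libraries 1 to 3, against 24.2, 30.2 and 24.9 CPM in vehicle libraries 1 to 3, and rose by 0.64 in log2 units (adjusted p = 0.00345 by edgeR, SE 0.12). The groups were separate, and the call held in all 14 alternatives. Ptges2, another prostaglandin E synthase gene, rose by 0.33 (edgeR adjusted p = 0.00979), but lay at 0.22 with the length and GC trend removed (edgeR adjusted p = 0.0946). Ptges, Ptges2 and Ptges3, the prostaglandin E synthase genes, were thus all higher, Ptges2 with the exception just given. The other risers, named after their values were seen, were Hpgds, the haematopoietic prostaglandin D synthase gene, by 0.48 (edgeR adjusted p = 0.0143), whose call was lost without vehicle library 1 or 3 (edgeR adjusted p = 0.0542 and 0.0569), and Cbr1, a carbonyl reductase gene, by 0.23 (edgeR adjusted p = 0.0445), whose call was lost in 9 of 14 alternatives. Akr1b3, an aldose reductase gene with prostaglandin F synthase activity, fell to 134.9 ± 2.30 CPM with PEox against 258.6 ± 5.72 CPM with vehicle (SD, n = 3; edgeR adjusted p = 4.04e-06), and Fam213b, a prostamide and prostaglandin F synthase gene, fell by 0.98 (edgeR adjusted p = 0.00461), or by 0.43 and without a call with that trend removed (edgeR adjusted p = 0.13).

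Export genes of both branches were higher. Abcc4, which exports prostaglandin E2, rose by 0.70 in log2 units (adjusted p = 0.0173 by edgeR, SE 0.18), with the call lost without PEox library 3 or vehicle library 1 or 2 (edgeR adjusted p = 0.0514 to 0.0785). Abcc1, which exports leukotriene C4 and glutathione conjugates, had 59.7, 68.6 and 75.6 CPM in PEox libraries 1 to 3 and 31.3, 37.4 and 35.4 CPM in vehicle libraries 1 to 3, a log2 fold change of 0.97 (adjusted p = 0.000281 by edgeR, SE 0.11). Its groups lay far apart. Of 5 prostaglandin transport and breakdown genes 2 rose and none fell: besides Abcc4 this was Zadh2, a prostaglandin reductase gene, by 0.53 (edgeR adjusted p = 0.0134), whose call was lost without vehicle library 1 or 2 (edgeR adjusted p = 0.0548 and 0.0617). Ptgr1 and Ptgr2, the other reductase genes, had log2 fold changes of 0.30 and 0.22 and did not pass (edgeR adjusted p = 0.265 and 0.229).

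Of 10 other genes of leukotriene synthesis, export and processing 5 fell and 2 rose. Ggt1, a gamma-glutamyl transferase gene whose product converts leukotriene C4 to D4, had 8.11, 8.59 and 4.92 CPM in PEox libraries 1 to 3, against 30.1, 38.2 and 34.4 CPM in vehicle libraries 1 to 3 (log2 fold change -2.25, SE 0.22, adjusted p = 0.000112 by edgeR). Its relative Ggt5 fell by 0.78 (edgeR adjusted p = 0.000822), and Cyp4f18, which encodes a leukotriene B4 hydroxylase and shares 181 exonic bases with Zfp961, by 2.90 (edgeR adjusted p = 0.000371). The opposite-strand gene Zfp961 had 1060 to 1518 counts with PEox and 849 to 855 with vehicle. Cyp4f18 had fewer, 39 to 86 with PEox and 351 to 496 with vehicle. The remaining called genes, named after their values were seen, were Mgst2, with leukotriene C4 synthase activity, and the dipeptidase gene Dpep2, which fell by 1.08 and by 0.72 (edgeR adjusted p = 0.0157 and 0.00187), and the dipeptidase gene Dpep1, which rose by 1.19 (edgeR adjusted p = 0.0288). The symbol Dpep2 has 2 overlapping identifiers, of which the one with more counts was used. The call of Mgst2 was lost without vehicle library 1 or 2, and that of Dpep1 in 5 of 13 alternatives. Of 6 other lipoxygenase genes 5 did not pass the filter on low counts. The one tested was Alox15, with no count in any PEox library and 78, 82 and 77 counts in vehicle libraries 1 to 3, at least 25.8-fold lower with PEox when 3 counts per library are taken as the floor. Macrophages and eosinophils are known sources of this enzyme, and macrophage marker sums were lower in the PEox libraries, as given above, whereas the 7 eosinophil markers summed to 6.37 to 8.31 CPM with PEox and 3.77 to 4.57 CPM with vehicle. Most of the eosinophil sum was Siglecf, at 6.92 ± 0.55 CPM with PEox and 3.16 ± 0.24 CPM with vehicle (SD, n = 3; edgeR adjusted p = 0.00237), the one of 2 tested markers that rose, and Epx, Ear1 and Ear6 were at 0 in all libraries. The part of these cells in the Alox15 counts was not tested.

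Genes that free arachidonic acid showed few calls. Of 14, 7 were tested, 1 fell and none rose. The one that fell was Mgll, which encodes monoacylglycerol lipase, at 42.2 ± 4.54 CPM with PEox and 60.1 ± 2.66 CPM with vehicle (SD, n = 3; edgeR adjusted p = 0.0036). Pla2g4a, the cytosolic phospholipase gene and the main supplier of arachidonic acid in many cells, named after its values were seen, averaged 5.76 ± 1.13 CPM with PEox and 4.49 ± 1.42 CPM with vehicle and did not pass (SD, n = 3; edgeR adjusted p = 0.391). Pla2g12a, Pla2g6 and Pla2g4c had log2 fold changes of -0.36, 0.43 and -1.98 and did not pass either (edgeR adjusted p = 0.118, 0.203 and 0.248).

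Genes of the cyclic AMP pathway, which EP2 and EP4 feed, were described from a list of 24. Of these 12 rose, 1 fell and 11 did not pass, with a median log2 fold change of 0.33. Among all tested genes 18.3% rose and 18.8% fell, at a median of 0.00074. The phosphodiesterase genes Pde4a and Pde4d, whose products break cyclic AMP down, rose by 0.78 and 1.25 on the log2 scale (edgeR adjusted p = 0.000104 and 0.00128; SE 0.07 and 0.19). Crem, a cyclic AMP response element modulator gene, averaged 142.2 ± 7.10 CPM with PEox and 100.9 ± 4.67 CPM with vehicle (SD, n = 3; edgeR adjusted p = 0.000487), and Crtc2, a coactivator gene of the same factor family, rose by 0.72 (edgeR adjusted p = 0.00014). Each of these 4 passed in all 14 alternatives. Of genes named after their values were seen, the protein kinase A genes Prkacb and Prkar1a rose by 0.65 and 0.20 (edgeR adjusted p = 0.00315 and 0.00438). Adenylyl cyclase genes, named in the same way, went in both directions. Adcy3 rose by 1.005 without overlap (edgeR adjusted p = 0.00351), and shares 1380 exonic bases with the opposite-strand gene Cenpo. Cenpo had 1708 to 2021 counts with PEox and 2141 to 2416 with vehicle. Adcy3 had 1258 to 2178 and 839 to 881, so its level is uncertain where strand was not used in counting. Adcy7 fell by 0.31 with overlapping groups (edgeR adjusted p = 0.0354), a call lost in 6 of 14 alternatives. Adcy4, Adcy6 and Adcy9 did not pass.

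By Euclidean distance between log2 CPM values, each taken minus the gene's vehicle mean, across the 6 libraries, the 3 genes most like Ptger2 among 9725 named protein-coding genes with at least 5 CPM were Zfp839, Pnpla6 and Msl3l2, at distances of 0.0694, 0.12 and 0.121 with log2 fold changes of 1.08, 1.04 and 1.13. For Ptger4 they were Dgkd, Phactr2 and Lclat1, at 0.134, 0.14 and 0.141 with log2 fold changes of 0.59, 0.64 and 0.54. Within double the distance of the third gene lay 14 genes for Ptger2 and 65 for Ptger4, so those named do not stand apart. Likeness here describes the levels only.

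**Figure D4:**
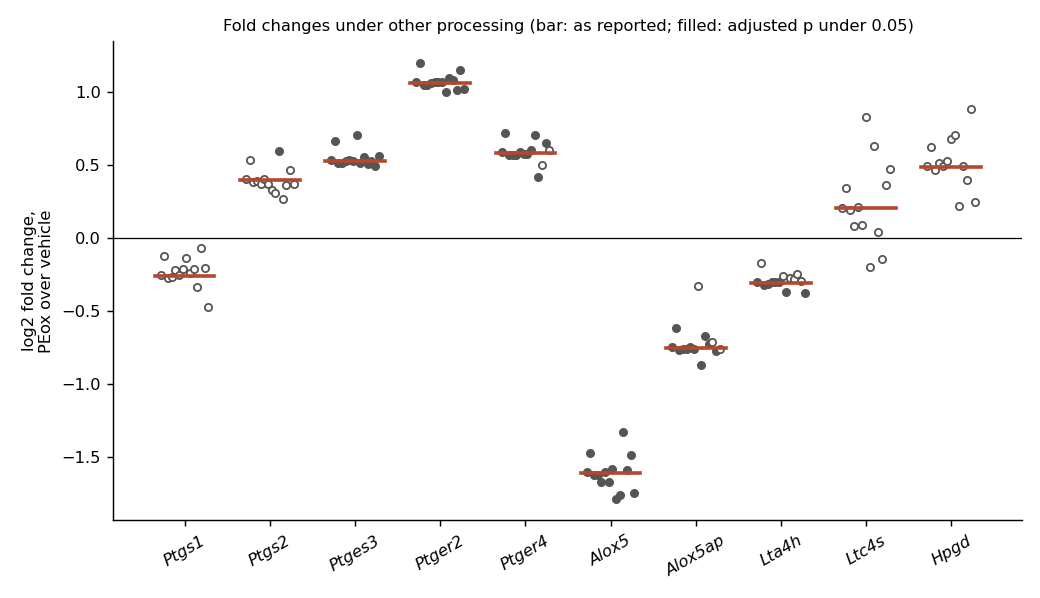
Log2 fold change of PEox over vehicle (y axis) of the 10 eicosanoid genes under each alternative of scaling, filter, tool, pairing, length correction or left-out library (points, filled where the adjusted p was under 0.05), with the reported value as a bar. Ptger2, Ptges3 and Alox5 stay filled in every alternative, while the points of Ltc4s fall on both sides of 0.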

How the data were processed

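Per the labels' protocols, a company made and sequenced the libraries as paired 150 bp reads, which were cleaned with fastp and aligned with HISAT2 2.0.5. edgeR 3.22.5 appears in the submitters' processing notes. The counter, genome build and annotation are not given in the sources used here. Whole-number counts per gene, not normalized, were deposited for 6 libraries. All columns were matched to samples by title.

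From these, edgeR 4.0.16 (R 4.3.3; limma 3.58.1) gave the tests: filterByExpr, TMM scaling (factors 0.951 to 1.05), and the robust quasi-likelihood test of PEox against vehicle over 18253 genes, with Benjamini-Hochberg adjustment at 0.05. SEs are the log2 fold change over the root of F, and 95% intervals use the moderated degrees of freedom. Symbols, exonic lengths and chromosomes came from GENCODE M21, not necessarily the annotation used for counting. Depth allowed a floor of 3 counts, or 0.0472 to 0.0529 CPM; floors cover counting error only, since reads are not independent molecules.

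The 10 genes and the lists were chosen with earlier results of these data known. Named genes were those 10, up to 4 per list with the smallest p, the 3 most like each receptor gene (log2 of CPM plus 0.5), and genes said to be named after their values were seen. Alternatives were RLE and library size scaling, no filter, at least 5 CPM in 3 libraries, replicate blocks, each library left out, DESeq2 1.42.0, limma-voom, and loess removal (span 0.5) of length and GC trends.

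No pair of libraries agreed within sampling noise (chi-square per gene 16.5 or more). Tested on simulated data for PEox against vehicle with 17552 genes, 48.5% of 97 genes changed by 1 and 76% of 96 changed by 2 log2 units were found, and 4 of 17359 unchanged genes were called. Far fewer genes changed there than the 37.1% called in the real data. The adjusted p depends on that share, so these rates need not hold for the real data. Some items withheld for evaluation are not reported here.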

Additional observations from a re-analysis of the deposited data

How the results depend on the processing

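Of the 10 genes, Ptger2, Ptges3 and Alox5 kept direction and call in all 14 alternatives. The count of 3 lower genes was 1 with the length and GC trend removed and 1 to 3 when each library was left out (1 without vehicle library 1), and the count of 3 higher genes was 2 to 4. Of the other eicosanoid genes, 9 were higher and 4 to 7 with a library left out (4 without vehicle library 1, 5 without vehicle library 2), and 13 were lower, 11 to 13 with a library left out. The single lower cyclic AMP pathway gene became 0 under library size scaling, 0 without a filter, 2 with the length and GC trend removed and 0 to 1 with a library left out (0 without PEox library 1 or 3 or vehicle library 1 or 2); the 12 higher ones were 11 to 16 throughout. The signs of genes without a call turned for Ltc4s (-0.20 without PEox library 1, -0.15 without vehicle library 1; -0.20 to 0.63 with a library left out), Ptgir (-0.20 without PEox library 1, -0.025 without vehicle library 3; -0.20 to 0.30) and Ptger1 (-0.032 with the length and GC trend removed, -0.17 without PEox library 3; -0.17 to 0.31). The causes of these differences were not tested. Library size scaling moved the median log2 fold change of all genes to 0.137 and the split to 4411 higher and 2715 lower genes, 61.9% higher against 49.3% as reported, and the length and GC removal moved it to 0.134 and 60%; relative to the first shift, Lta4h at -0.17 lay as far below the median as in the reported fit. Fewer genes were called with a vehicle library left out, 5282 to 5470 against 6775. Replicate numbers did not pair the libraries (correlation of same-numbered deviations 0.00541, 0.0135 and -0.00583), and with the replicate block 3 of the 10 genes were higher, 3 lower, and 6159 genes were called. Few counts stand behind the values of Ltc4s, Hpgd and Ltb4r2.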

Other observations

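A summary of both receptor families was chosen after the data were seen and carries no test. The 9 prostanoid receptor genes summed to 161, 139.4 and 163.9 CPM in PEox libraries 1 to 3 and to 87.7, 99.8 and 91.7 CPM in vehicle libraries 1 to 3. The 4 leukotriene receptor genes summed to 244, 234.1 and 218.9 CPM in PEox libraries 1 to 3 and to 530.8, 540.5 and 549.7 CPM in vehicle libraries 1 to 3. Prostanoid receptor genes thus took 39.8%, 37.3% and 42.8% of the counts of both families with PEox, against 14.2%, 15.6% and 14.3% with vehicle, shares that do not depend on library scaling. Per kilobase of exon the shares were 21.5% to 25.6% with PEox and 6.39% to 6.93% with vehicle. The split rests on few genes, mainly Ptger2, Ptger4, Ltb4r1, Cysltr1 and Cysltr2.

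Tuft cells are a known intestinal source of eicosanoids. Their defining factor gene Pou2f3 had no count in any library, and Il25, Trpm5 and Sh2d6 were at or near 0. Dclk1 had counts in every library, at 1.97 ± 1.33 CPM with PEox and 3.71 ± 0.99 CPM with vehicle, and did not pass (SD, n = 3; edgeR adjusted p = 0.254). Avil held nearly all of the tuft list's sum of 66.5 to 75.5 CPM with PEox and 101.6 to 134.4 CPM with vehicle. Avil itself fell to 67.9 ± 5.32 CPM with PEox against 117.6 ± 16.5 CPM with vehicle (SD, n = 3; edgeR adjusted p = 0.00076). The part of tuft cells in the eicosanoid genes was not tested.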
